A study of Mus musculus with 12 samples.

Results

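SP2 is the second of 4 subsets of CD4 SP thymocytes, and its mRNA levels were set against those of the stages on either side of it, SP1 and SP3. For each of 45037 probe sets the log2 mean of the 3 SP2 arrays was compared with the average of the log2 means of the 3 SP1 and the 3 SP3 arrays, so the contrast used 9 of the 12 arrays of the series. SP1 cells were Qa-2-6C10+CD69+, SP2 cells Qa-2-6C10-CD69+ and SP3 cells Qa-2-6C10-CD69-, and the last subset, SP4, was Qa-2+6C10-CD69-. All cells came from thymi of C57BL/6 mice aged 6 to 8 weeks and passed 1 gate, CD4+CD8-CD25-NK1.1-, after CD8+ cells had been lysed with antibody and complement. The thymi of several mice were pooled for each preparation, so an array reports a pool and not a mouse.

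CD4 SP thymocytes are the progeny of CD4+CD8+ double positive cells of the cortex that were positively selected by their T cell receptor. In the medulla they meet self antigens, and strong recognition there either deletes the cell or turns it towards the regulatory T cell lineage. A receptor signal induces costimulatory receptors, regulators of G protein signalling and G1 cyclins in T cells, while CCR7 guides thymocytes from cortex to medulla.

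The contrast is given as a difference of log2(intensity + 16), positive where SP2 was above its neighbours, and the unit of a single array is the deposited linear intensity. Without a term for the replicate number, 0 probe sets passed an adjusted p of 0.05 in limma on either side (0% of those tested), and 707 higher and 531 lower in SP2 had an unadjusted p under 0.05 (1.57% and 1.18%). The smallest adjusted p in this fit was 0.119. Arrays of the same replicate number deviated together from their subset means, but arrays of numbers 1 and 2 also did so with each other. The number was also entered as a block, on the assumption that it pairs the arrays. In that fit 21 probe sets were higher in SP2 (0.0466% of all) and 6 were lower (0.0133% of all). At an unadjusted p of 0.05 the numbers in this fit were 2083 and 1558 (4.63% and 3.46%). A fold over 2 was passed by 8 of the 21 (background 0.0178%) and by 4 of the 6 (background 0.00888%). Every call below comes from the fit with the block, and the adjusted p without it is given beside the main genes.

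Each of the 27 probe sets had its SP2 mean outside the means of both SP1 and SP3, which 37.1% of all probe sets had on the high side and 30.7% on the low side. The 3 SP2 arrays did not overlap with the 6 flanking arrays for 14 of the 21 higher probe sets (background 0.908%) and 4 of the 6 lower ones (background 0.553%). Within each replicate number, SP2 lay beyond both neighbours in 3 of 3 numbers for 21 and 6 of them (background 5.57% and 3.38%). The SP2 mean was also beyond that of SP4 for 21 of the higher and 5 of the lower probe sets (background 28% and 20.2%), H2-Q2 being the exception. Against SP1 and SP3 singly, 21 and 6 had an unadjusted p under 0.05 on the same side (background 1.2% and 0.988%). These measures come from the same arrays as the contrast and describe it.

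**Figure D1:**
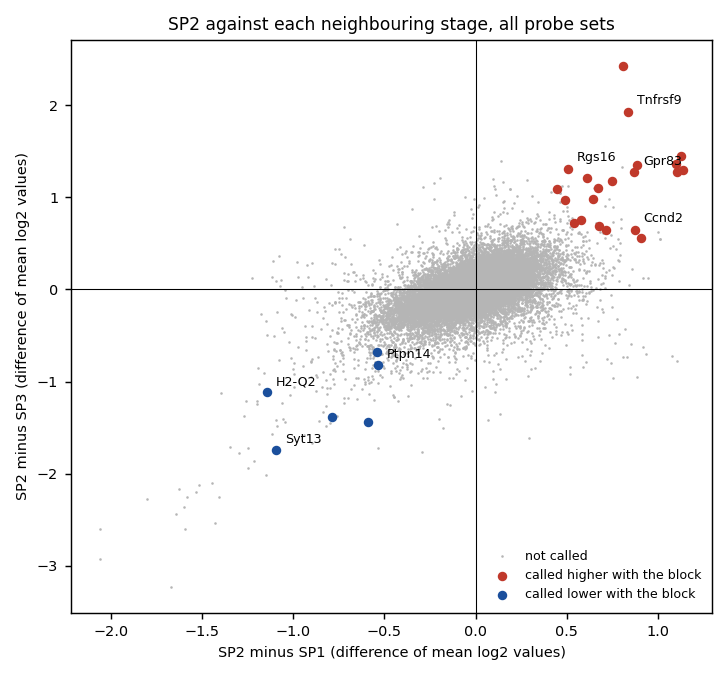
Difference of mean log2 values of SP2 and SP1 (x axis) against that of SP2 and SP3 (y axis) for 45037 probe sets, each a point. The 21 probe sets called higher with the replicate block (red) lie in the upper right and the 6 called lower (blue) in the lower left, while several uncalled probe sets lie further down on the lower left.

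Both sides of the contrast were then read singly. The differences from SP1 and SP3 make up the contrast that picked these probe sets, and that from SP4 shares its SP2 arrays. A share above the background therefore follows largely from that choice and only describes the calls. Of the 21 higher probe sets, 18 passed an adjusted p of 0.05 against SP3 (background 0.131%) and 3 against SP1 (background 0.00888%), and 16 passed against SP4 (background 0.808%, and 1.84% on the low side, where 0 of the 6 passed). Of the 6 lower ones, 6 passed against SP3 (background 0.0888%) and 0 against SP1, where no probe set of the array was called lower and 1640 had an unadjusted p under 0.05 with the block (3.64%). The median difference of the 21 was 0.75 from SP1, 1.18 from SP3 and 0.81 from SP4. SP1 had a higher mean than SP3 for 18 of the 21, against 47.9% of all probe sets, and SP4 had a higher mean than SP3 for 18 of them, against 45.1%.

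Among the called genes the largest positive contrast was that of Tnfrsf9, which encodes the costimulatory receptor 4-1BB of the TNF receptor family. Its 2 starts in RefSeq (GRCm38.p6) are shown first, since a motif of factors that act downstream of the T cell receptor was found at 1 of them. The windows run from 250 bases before a start to 50 after it, at chr4:150919905-150920204 and chr4:150927749-150928048, both on the plus strand. Capitals mark matches on either strand to AP-1 (TGANTCA), EGR (GCGNGGGCG), CRE (TGACGTCA) or the NF-κB consensus.

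Tnfrsf9, upstream start: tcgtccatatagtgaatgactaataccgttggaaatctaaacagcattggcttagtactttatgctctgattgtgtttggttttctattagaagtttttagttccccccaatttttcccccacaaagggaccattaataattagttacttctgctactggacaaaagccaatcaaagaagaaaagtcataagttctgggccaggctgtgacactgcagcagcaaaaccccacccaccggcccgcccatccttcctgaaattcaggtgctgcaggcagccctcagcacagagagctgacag
Tnfrsf9, downstream start: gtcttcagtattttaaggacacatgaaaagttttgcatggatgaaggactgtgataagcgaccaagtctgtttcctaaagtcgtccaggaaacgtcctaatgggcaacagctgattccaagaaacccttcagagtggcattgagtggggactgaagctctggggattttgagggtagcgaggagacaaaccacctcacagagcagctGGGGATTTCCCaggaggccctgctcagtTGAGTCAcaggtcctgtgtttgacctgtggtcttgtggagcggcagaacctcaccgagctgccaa

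The downstream start held 1 AP-1 match and 2 NF-κB matches that overlap each other, and the upstream start held none. Over 32851 promoters of the same length, 7.81% held an AP-1 match, 5.55% an EGR match, 4.51% an NF-κB match and 1.79% a CRE match. Of the 20 called genes, 16 had a promoter in the table. AP-1 matches stood at 2 of these genes, EGR matches at 2, an NF-κB match at 1 and a CRE match at 0, and these letters describe the windows without showing that a factor binds there. Some genes had more than 1 window, so these counts by gene and the shares by promoter differ in unit.

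Tnfrsf9 intensities at the probe set of largest contrast were 174, 235 and 155 in SP1, 432, 404 and 217 in SP2, 63.2, 68.1 and 27.0 in SP3 and 85.0, 143 and 81.6 in SP4 (replicates 1, 2 and 3). Replicate 3 was the lowest of each subset, and SP2 was the highest subset within each number, although SP2 replicate 3 lay below SP1 replicate 2. The contrast was 1.61 (standard error 0.15, adjusted p = 0.00104 from limma with the block, 0.484 without), a 3.06-fold higher level in SP2. It was 1.87, 1.53 and 1.44 within numbers 1, 2 and 3. SP2 exceeded SP3 by 2.42 (adjusted p = 0.000101) and SP1 by 0.81 (adjusted p = 0.174).

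Another Tnfrsf9 probe set had intensities of 461, 466 and 377 in SP1, 864, 918 and 608 in SP2, 188, 206 and 189 in SP3 and 288, 359 and 222 in SP4. Here all SP2 arrays were above all flanking arrays, and the contrast was 1.38 (standard error 0.11, adjusted p = 0.00062 with the block, 0.119 without). The remaining probe set of the gene had a mean intensity of 8.80 and a contrast of 0.06.

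Among 19 measured costimulatory molecules and TNF family genes, Tnfrsf9 was the only one called. Their median contrast was 0.28, against 0.0035 over 18193 genes, and 11 had an unadjusted p under 0.05 on the high side and 0 on the low side, against 4.42% and 4.06% of all genes. Tnfrsf4, which encodes OX40, had a contrast of 0.82 (adjusted p = 0.214), Cd200, an inhibitory ligand, 0.65 (adjusted p = 0.0845), and Tnfrsf18, which encodes GITR, 0.57 (adjusted p = 0.327). The summed intensity of the list was 7324 to 11985 in SP1, 9562 to 13010.0 in SP2, 5746 to 9733 in SP3 and 8290.3 to 12849 in SP4, so the subsets overlapped.

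**Figure D2:**
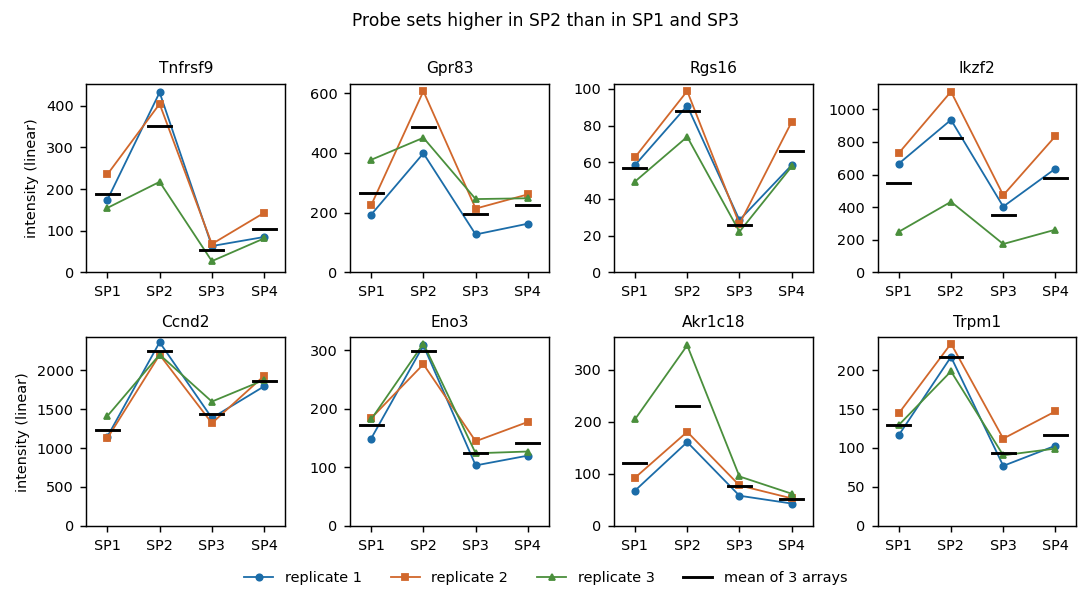
Linear intensity (y axis, from 0) in each array of SP1 to SP4 (x axis) for 8 called genes, each by its probe set of largest contrast. Lines join arrays of 1 replicate number and bars are means of 3 arrays, and in every panel each line is highest at SP2.

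Ikzf2 and Gpr83, both on the list of regulatory T cell markers, were also higher in SP2. Ikzf2 encodes Helios, an Ikaros family zinc finger protein found in regulatory T cells and in thymocytes that have met strong self antigen. Gpr83 is a G protein-coupled receptor. Ikzf2 intensities at probe set 1456956_at were 666, 731 and 249 in SP1, 935, 1108 and 433 in SP2, 403, 473 and 174 in SP3 and 636, 836 and 262 in SP4. Replicate 3 was low in every subset, so the groups overlapped, while within each number SP2 was the highest. The contrast was 0.91 (standard error 0.10, adjusted p = 0.00352 with the block, 1 without), and it was 0.83, 0.89 and 1.00 within the 3 numbers.

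Another Ikzf2 probe set, 1437542_at, had 1116, 1256 and 1252 in SP1, 1409, 1738 and 1829 in SP2, 646, 1025 and 672 in SP3 and 972, 1346 and 1071 in SP4, with no overlap of SP2 and its neighbours. Its contrast was 0.77 (standard error 0.12, adjusted p = 0.0462 with the block, 1 without), and the remaining one of the gene had 0.60 (adjusted p = 0.079). Gpr83 intensities were 193, 225 and 377 in SP1, 399, 607 and 451 in SP2, 127, 214 and 246 in SP3 and 163, 261 and 248 in SP4. All SP2 arrays were above the others, SP1 replicate 3 being the nearest. The contrast was 1.07 (standard error 0.15, adjusted p = 0.0297 with the block, 1 without), and a further probe set had 0.87 (adjusted p = 0.063). The Gpr83 window on the plus strand at chr9:14859960-14860259 is shown as that of a called gene with no match to the motifs, and for Ikzf2 none was used here.

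Gpr83: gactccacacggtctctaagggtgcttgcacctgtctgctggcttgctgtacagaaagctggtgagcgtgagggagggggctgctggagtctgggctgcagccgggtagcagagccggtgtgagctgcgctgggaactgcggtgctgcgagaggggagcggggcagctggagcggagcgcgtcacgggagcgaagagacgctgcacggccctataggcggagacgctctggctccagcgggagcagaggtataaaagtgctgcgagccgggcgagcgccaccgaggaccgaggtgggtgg

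The other regulatory T cell markers did not all stand with these 2 genes. Of 11 measured, 2 were called higher, 6 had an unadjusted p under 0.05 on the high side and 2 on the low side, with a median contrast of 0.43. Foxp3, the lineage factor, had 24.8, 23.5 and 13.0 in SP1, 31.8, 42.5 and 17.7 in SP2, 34.5, 58.0 and 25.5 in SP3 and 66.2, 136 and 65.3 in SP4, with a contrast of 0.05 (standard error 0.12, adjusted p = 0.939). Foxp3 was thus brightest in SP4, 1.14 above SP2 on the log2 scale (adjusted p = 0.000862). Il2ra, which encodes CD25 and was gated out, had a contrast of 0.17 (standard error 0.22, adjusted p = 0.858). Nrp1, a semaphorin receptor, lay on the other side at -1.32 (adjusted p = 0.079), with 77.3, 41.4 and 49.9 in SP2 and no SP1 or SP3 array below 77.8. The summed intensity of the list was 3901 to 6578 in SP1, 5094 to 8120.3 in SP2 and 2664 to 4332 in SP3. Cells of this lineage and a higher level per CD4 SP cell cannot be told apart in bulk arrays, and the same holds for every gene here: fewer or more cells of a type and less or more RNA per cell look alike.

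Rgs16 and Ccnd2 encode signalling and cell cycle regulators. Rgs16, a GTPase-activating protein that shortens signals of Gi- and Gq-coupled receptors, had 58.4, 62.7 and 49.5 in SP1, 90.8, 98.8 and 73.8 in SP2, 28.5, 26.4 and 22.1 in SP3 and 58.4, 82.0 and 57.7 in SP4. All SP2 arrays lay above all SP1 and SP3 arrays, and SP3 was lowest, while SP4 overlapped with SP2. The contrast was 0.91 (standard error 0.09, adjusted p = 0.0027 with the block, 0.205 without). SP2 was 1.31 above SP3 (adjusted p = 0.000428), 0.51 above SP1 (adjusted p = 0.183) and 0.35 above SP4 (adjusted p = 0.144). The gene's other probe sets had contrasts of 0.64 (adjusted p = 0.054) and 0.55 (adjusted p = 0.395). Of 8 RGS genes measured, read at the probe set of highest mean, 0 were called, 1 had an unadjusted p under 0.05 on the high side and the median contrast was 0.12.

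Ccnd2, which encodes the G1 cyclin D2, had 1146, 1126 and 1411 in SP1, 2359, 2198 and 2199.7 in SP2, 1386, 1319.6 and 1597 in SP3 and 1793, 1928 and 1875 in SP4. SP2 did not overlap with any other subset, and SP4 lay between SP2 and its neighbours. The contrast was 0.76 (standard error 0.10, adjusted p = 0.0231 with the block, 0.286 without). A further probe set was called at 0.74 (adjusted p = 0.0479), and the gene's 7 probe sets had contrasts of 0.66 to 0.86, all above 0. The others were not called, among them the probe set of highest mean, at 0.66 (adjusted p = 0.0558 with the block). The difference from SP4 was 0.27 (adjusted p = 0.341). The cell cycle list as a whole did not move with it. Of its 22 measured genes, each read at its probe set of highest mean, 0 were called. On the high side 1 had an unadjusted p under 0.05 and on the low side 4, and the median was -0.20. That median was -0.55 and -0.33 within numbers 1 and 2 and 0.29 within number 3, so the list had no common direction across replicate numbers.

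Metabolic enzymes and transporters made up a further group. Eno3, the muscle-type enolase, had 149, 184 and 182 in SP1, 308, 276 and 312 in SP2, 103, 145 and 124 in SP3 and 120.1, 178 and 127 in SP4. Its SP2 arrays stood clear of the 9 others, with a contrast of 0.96 (standard error 0.12, adjusted p = 0.0105 with the block, 0.312 without). The 13 measured glycolysis genes had a median of -0.0007 and 0 calls, with 1 higher and 2 lower at an unadjusted p under 0.05.

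Akr1c18, a 20-alpha-hydroxysteroid dehydrogenase that inactivates progesterone, had 67.5, 92.3 and 204 in SP1, 161, 181 and 346 in SP2, 57.9, 77.6 and 94.9 in SP3 and 42.9, 52.8 and 61.7 in SP4. Replicate 3 was the brightest of each subset, and SP1 replicate 3 exceeded SP2 replicates 1 and 2, while within each number SP2 was highest and SP4 lowest. The contrast was 1.12 (standard error 0.15, adjusted p = 0.0231 with the block, 1 without), and SP2 was 1.77 above SP4 (adjusted p = 0.00014).

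Slc15a1, a proton-coupled peptide transporter, had a like order, with 25.3, 33.8 and 54.8 in SP1, 51.2, 72.7 and 77.1 in SP2, 14.8, 31.1 and 34.0 in SP3 and 9.82, 11.5 and 19.4 in SP4. SP1 replicate 3 overlapped with SP2. The contrast was 0.81 (standard error 0.10, adjusted p = 0.00836 with the block, 1 without), and SP2 was 1.49 above SP4 (adjusted p = 2.98e-05).

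Membrane and trafficking genes were the last of the named peaks. Trpm1, a cation channel known from melanocytes and the retina, had 116, 144 and 129 in SP1, 217, 234 and 198 in SP2, 77.0, 112 and 90.6 in SP3 and 103, 147 and 99.2 in SP4. SP2 stood clear of the other 9 arrays at a contrast of 0.89 (standard error 0.10, adjusted p = 0.00563 with the block, 0.484 without). The gene's 3 other probe sets had mean intensities of 5.05 to 24.2 and contrasts of 0.0054 to 0.056.

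Ptgfrn, an immunoglobulin superfamily partner of tetraspanins, had 92.0, 149 and 272 in SP1, 155, 232 and 322 in SP2 and 57.4, 129 and 165 in SP3, so only the order within a number separated SP2. Its contrast was 0.73 (standard error 0.11, adjusted p = 0.0462 with the block, 1 without). Cyth3, an exchange factor for ARF GTPases, had 161, 194 and 228 in SP1, 259.6, 349.9 and 350.3 in SP2, 164, 180.2 and 236 in SP3 and 268, 295 and 302 in SP4. SP2 was above SP1 and SP3 without overlap but not above SP4, from which it differed by 0.13 (adjusted p = 0.675). The contrast was 0.68 (standard error 0.10, adjusted p = 0.0396 with the block, 1 without).

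Of the remaining higher probe sets, Nudt6, a nudix hydrolase gene, P2rx7, an ATP-gated channel, and Cdyl2, a chromodomain protein, were named after their values were seen, since they fall outside the 12 largest. Their contrasts were 0.68, 0.67 and 0.63 (adjusted p = 0.0431, 0.0279 and 0.0396 with the block). Another Nudt6 probe set was at -0.12, so the gene's probe sets disagree in direction. P2rx7 had a further probe set at 0.57 (adjusted p = 0.079). The P2rx7 window at chr5:122643677-122643976 on the plus strand is printed because it held both an AP-1 and an EGR match. The window of the gene's downstream start, at chr5:122650133-122650432, held no match.

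P2rx7, upstream start: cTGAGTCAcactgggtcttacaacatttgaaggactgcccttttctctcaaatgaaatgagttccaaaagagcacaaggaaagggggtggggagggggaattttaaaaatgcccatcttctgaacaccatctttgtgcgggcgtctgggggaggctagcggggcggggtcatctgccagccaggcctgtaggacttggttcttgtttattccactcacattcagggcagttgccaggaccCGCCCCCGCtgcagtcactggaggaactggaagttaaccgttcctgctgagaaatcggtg

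Probe sets without a gene in the annotation were among the firmest peaks. Probe set 1428301_at had 163, 204 and 259 in SP1, 437, 483 and 487 in SP2, 130.3, 175 and 185 in SP3 and 241, 275 and 273 in SP4, and 1452731_x_at had 76.8, 108 and 109, then 222, 236 and 223, then 69.5, 86.3 and 99.9, then 118, 129.7 and 121. SP2 stood clear of all other arrays at both. Their contrasts were 1.29 (adjusted p = 0.00062 with the block, 0.119 without) and 1.19 (adjusted p = 0.00094 with the block, 0.119 without). Both also passed against SP1 singly, at differences of 1.13 and 1.11 (adjusted p = 0.0161 for each).

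On the low side, Syt13, an atypical synaptotagmin, had the largest contrast of the called genes. Its intensities were 108, 117 and 32.4 in SP1, 32.03, 21.0 and 29.9 in SP2, 202, 157 and 65.6 in SP3 and 58.5, 53.0 and 28.8 in SP4. SP2 was below every flanking array, SP1 replicate 3 being just above it. The contrast was -1.42 (standard error 0.22, adjusted p = 0.0458 with the block, 1 without), and it was -1.78, -2.03 and -0.45 within numbers 1, 2 and 3. Another Syt13 probe set had -0.99 (adjusted p = 0.168).

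H2-Q2, a class Ib gene of the Qa region whose relatives are nearly identical, so that the probe set may read several of them, had 369, 291 and 90.0 in SP1, 126, 94.8 and 57.7 in SP2, 377, 275 and 87.4 in SP3 and 98.9, 107 and 28.1 in SP4. Replicate 3 was low throughout and SP2 was not below SP4. The contrast was -1.13 (standard error 0.16, adjusted p = 0.0297 with the block, 1 without). A930003A15Rik, an uncharacterised transcript, had 35.9, 36.4 and 16.2 in SP1, 15.3, 11.1 and 14.2 in SP2 and 90.0, 78.8 and 35.2 in SP3, with a contrast of -1.02 (adjusted p = 0.0342 with the block, 1 without). The unnamed 1425793_a_at had a contrast of -1.09 (adjusted p = 0.0148 with the block, 1 without).

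Smaller dips were those of Ptpn14, a cytoplasmic tyrosine phosphatase, and Tctex1d1, a dynein light chain relative. Ptpn14 had 119, 101 and 82.0 in SP1, 63.8, 71.9 and 56.4 in SP2, 138, 114 and 124 in SP3 and 75.04, 77.6 and 65.0 in SP4, with a contrast of -0.68 (standard error 0.10, adjusted p = 0.0412 with the block, 0.882 without). Tctex1d1 had 24.8, 25.4 and 30.9 in SP1, 10.9, 11.7 and 18.6 in SP2, 33.5, 32.04 and 28.3 in SP3 and 17.0, 12.7 and 15.4 in SP4, with a contrast of -0.61 (standard error 0.08, adjusted p = 0.0263 with the block, 0.246 without). Both were below all flanking arrays in SP2 and overlapped with SP4.

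**Figure D3:**
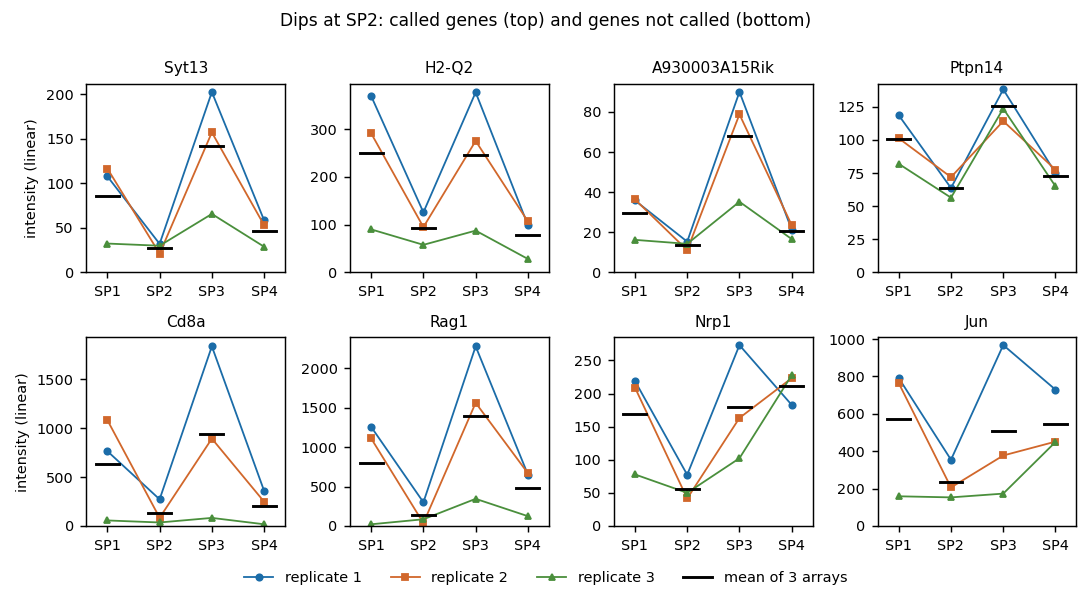
Linear intensity (y axis, from 0) in each array of SP1 to SP4 (x axis) for 4 genes called lower in SP2 (top) and 4 that were not called (bottom), with lines joining arrays of 1 replicate number and bars at the means of 3 arrays. Replicate 3 is low in SP1 and SP3 for most of these genes, so its lines dip less at SP2.

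Larger negative contrasts than these were measured for markers of cortical double positive thymocytes, which the CD8 gate leaves out, but they did not pass the test. Cd8a, which encodes a chain of the CD8 coreceptor, had 765, 1083 and 55.5 in SP1, 272, 82.9 and 34.7 in SP2, 1838, 893 and 81.5 in SP3 and 358, 247 and 16.3 in SP4. The arrays of number 3 were at or below 81.5 in every subset, and SP2 was the lowest of the 3 stages within each number. The contrast was -2.04 (standard error 0.35, adjusted p = 0.063 with the block, 1 without). Rag1, the recombinase gene, had 1258, 1111 and 20.04 in SP1, 299.5, 34.8 and 83.7 in SP2 and 2280.3, 1563 and 344 in SP3, with a contrast of -2.45 (standard error 0.63, adjusted p = 0.256). Within number 3 SP1 lay below SP2 for this gene.

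Of 14 double positive markers measured, 0 were called and 12 had an unadjusted p under 0.05 on the low side, with a median of -1.67. The median was -1.88 and -2.77 within numbers 1 and 2 and -0.23 within number 3. Their summed intensity was 5826 to 11945 in SP1, 4242 to 5279 in SP2, 6522 to 18307 in SP3 and 4105 to 5575 in SP4. The sum was thus lower in all SP2 arrays than in any array of SP1 or SP3. The 6 called dips had a median of -1.30 and -1.33 in numbers 1 and 2 and -0.48 in number 3, but Ptpn14 was at -0.85, -0.49 and -0.69, so its size was not the smallest in number 3. The 21 peaks had medians of 0.95, 0.89 and 0.85 in the same order and a range of 0.44 to 1.44 in number 3, where the double positive markers differed least. The part of these cells in the called dips was not tested.

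Markers of several other cell types had medians below 0 as well. B cell markers had a median contrast of -0.44 (0 of 11 called, 4 lower at an unadjusted p under 0.05), and their sum was 1222 to 5940 in SP1, 1104 to 2522 in SP2 and 2019.7 to 3263 in SP3. Markers of activated and memory T cells had -0.42 (0 of 12 called, 5 lower and 1 higher), with sums of 2707 to 6105 in SP1, 2352 to 4334 in SP2 and 5836 to 6583 in SP3. NKT and innate-like markers had -0.38 (0 of 16 called, 5 lower and 2 higher), with sums of 731 to 2478 in SP1, 621 to 1257 in SP2 and 1695 to 1870.4 in SP3. Myeloid and dendritic cell markers had -0.32 (0 of 11 called, 1 lower and 1 higher), with sums of 793 to 1697 in SP1, 525 to 936 in SP2 and 796 to 932 in SP3. SP2 replicate 2 had the lowest sum of the 9 arrays on each of these 4 lists and on the double positive list, and its median correlation with other arrays of numbers 1 and 2 was 0.981 against 0.985 to 0.991 for the rest. Thymic epithelial and stromal markers (11 measured, median -0.09) and erythroid markers (5 measured, median 0.02) had mean intensities of 6.05 to 76.7 and 7.01 to 26.5 and 0 calls.

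**Figure D4:**
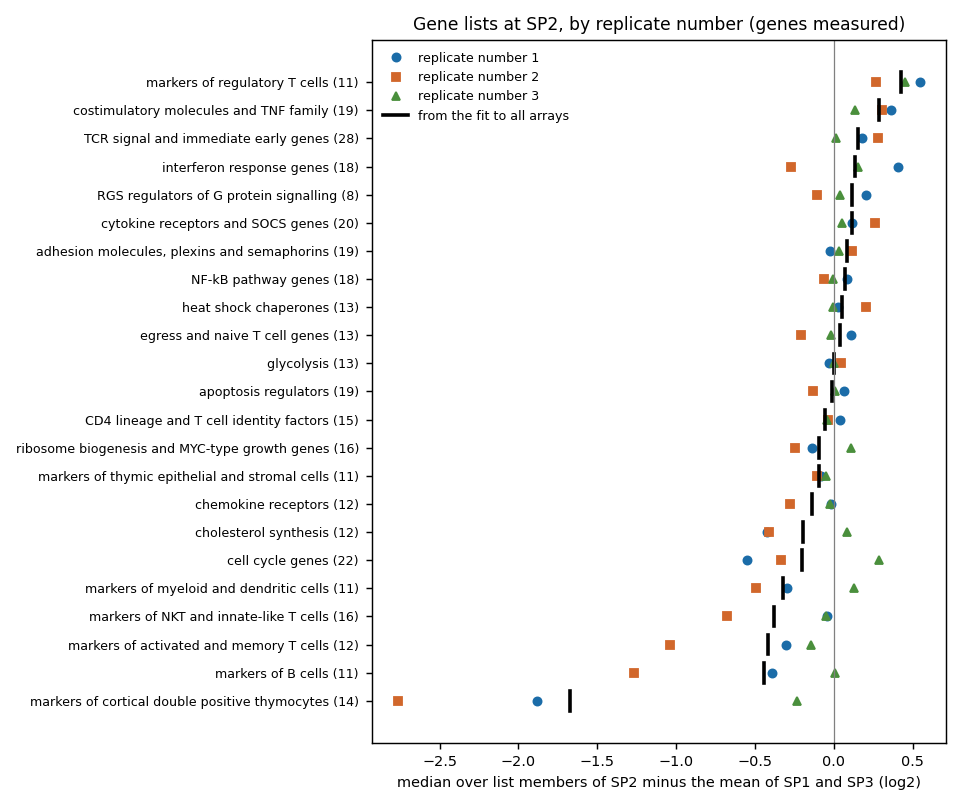
Median over the members of each gene list of SP2 minus the mean of SP1 and SP3 (x axis, log2), for 23 lists of at least 8 measured genes (y axis). Symbols give the value within each replicate number and bars the value over all arrays, and the double positive markers range from -2.77 to -0.23 while regulatory T cell markers lie above 0 in all 3 numbers.

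Genes that report on receptor signalling lay on both sides of 0. Of 28 TCR signal and immediate early genes 0 were called, 6 had an unadjusted p under 0.05 on the high side and 4 on the low side, and the median was 0.15. Cd5, an inhibitory receptor whose level follows signal strength, had 2098, 2377 and 2117 in SP1, 3379.9, 3821 and 2470.3 in SP2, 1879.6, 2033 and 1769 in SP3 and 2184, 2247 and 1648 in SP4. All SP2 arrays were above all flanking arrays, and the contrast of 0.64 (standard error 0.11) had an adjusted p of 0.063 with the block. Jun, an AP-1 subunit, was at -0.90 (adjusted p = 0.404) and Fosb at -0.80 (adjusted p = 0.407), with Jun at 152 to 354 in SP2 and 158 to 968 in its neighbours. Nr4a3, an orphan nuclear receptor, was at 0.61 (adjusted p = 0.426), its contrast being 0.80 and 1.02 within numbers 1 and 2 and 0.01 within number 3. The 18 NF-κB pathway genes had a median of 0.07, with 0 calls and 1 member on each side at an unadjusted p under 0.05.

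Chemokine receptors that guide thymocytes were compared next, since the study asked when CD4 SP cells enter the medulla. Ccr7, the receptor for CCL19 and CCL21, had 1395, 1318 and 2284 in SP1, 2134, 2837 and 3082 in SP2, 1505, 1535 and 2497 in SP3 and 2444, 2217 and 2671 in SP4. Within each number SP2 was above SP1 and SP3, but the subsets overlapped, and the contrast was 0.64 (standard error 0.13), which was not called in either fit (adjusted p = 0.134 with the block, 1 without). SP4 was close to SP2, at a difference of 0.12 (adjusted p = 0.789). Cxcr4, the receptor for CXCL12 that retains cells in the cortex, was at -0.53 (standard error 0.14, adjusted p = 0.276), with 564, 666 and 1248 in SP2 against 874 to 1414 in its neighbours. Ccr8, the receptor for CCL1 and CCL8, was at 0.80 (standard error 0.14, adjusted p = 0.0615), with all SP2 arrays above SP1 and SP3. Ccr4 was at 0.02, Ccr9 at -0.22 and Plxnd1 at 0.08 (standard errors 0.13, 0.15 and 0.15). In the fit without the block, each changed sign when some single arrays were left out. A gene that rises or falls by even steps from SP1 to SP3 has a contrast near 0. These values therefore do not address a change from SP1 to SP2, on which the study's proposal rests. By qRT-PCR the study reported lower Ccr9 and higher Ccr7 and Plxnd1 in SP2 than in SP1. It also reported a mild rise of Cxcr4 in SP2, opposite in sign to the contrast here. The qRT-PCR RNA came from cells sorted to leave out CD44hi cells as well, unlike the array RNA. From its arrays the study reported the Ccr7 rise and a continuous fall of Ccr9, but no significant difference in Plxnd1. Lower Ccr4 in SP2 than in SP1 was reported from both. Of 12 chemokine receptors 0 were called, 2 were higher and 4 lower at an unadjusted p under 0.05.

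Of the 4 measured genes of the sorting markers, 0 were called and 1, Cd8a, had an unadjusted p under 0.05, at the contrast of -2.04 given above. The difference of SP2 from SP3 alone at Cd8a was -2.28 (adjusted p = 0.0468 with the block). Cd69, which is on the surface of SP1 and SP2 cells but not of SP3 cells, had 868, 1112 and 473 in SP1, 854, 1010.4 and 493 in SP2, 662, 595 and 580.4 in SP3 and 979.7, 609.9 and 738 in SP4. The arrays of SP2 and SP3 overlapped, and their difference was 0.29 (adjusted p = 0.793). Cd4 was at 0.10 (standard error 0.14, adjusted p = 0.866).

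The remaining lists held no called gene at their probe sets of highest mean. Cytokine receptors and SOCS genes had a median of 0.11, with 7 of 20 higher and 2 lower at an unadjusted p under 0.05, Il7r being at 0.59 (adjusted p = 0.361) and Il18r1 at -1.13 (adjusted p = 0.257). Interferon response genes had 0.13 (5 of 18 higher, 0 lower), adhesion molecules, plexins and semaphorins 0.08 (5 of 19 higher, 3 lower), and egress and naive T cell genes 0.04 (1 of 13 higher, 3 lower). Among the last, S1pr1, the egress receptor, was at -0.66 (adjusted p = 0.422), with 137 to 267 in SP2, 96.4 to 185 in SP1 and 487 to 744 in SP3, so SP2 lay near SP1. Klf2, which encodes a factor that induces it, was at 0.04, with SP2 between its neighbours. Cholesterol synthesis genes were at -0.20 (0 of 12 higher, 4 lower), ribosome biogenesis and MYC-type growth genes at -0.09 (0 of 16 past that p), CD4 lineage and T cell identity factors at -0.06 (1 of 15 higher, 1 lower) and apoptosis regulators at -0.01 (1 of 19 higher, 1 lower). Heat shock chaperones (13 measured, 0.05) and housekeeping genes (7 measured, 0.07) had 0 members past an unadjusted p of 0.05.

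Just outside the threshold lay Nrgn, a calmodulin-binding protein, at 1.06 (adjusted p = 0.0558) and Il21, a T cell cytokine, at 0.82 (adjusted p = 0.0558), and both were named after their values were seen. Nrgn had 78.1, 72.4 and 103 in SP1, 164, 113 and 210.1 in SP2 and 32.3, 68.3 and 66.2 in SP3. Il21 had 13.9, 21.0 and 26.2 in SP1, 40.5, 70.8 and 29.5 in SP2 and 15.2, 23.5 and 12.1 in SP3. All SP2 arrays of both genes were above all flanking arrays. Just inside it lay the second Ccnd2 probe set (0.0479) and Ikzf2 probe set 1437542_at and Ptgfrn (0.0462 for both).

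How far a call rested on 1 array was read by leaving out each of the 12 in turn in the fit with the block. All 27 contrasts kept their sign. The count of calls lay between 7 and 57 on the high side and between 0 and 81 on the low side. It was 9 and 0 without SP1 replicate 1, 10 and 0 without SP1 replicate 2, 57 and 81 without SP1 replicate 3, 7 and 0 without SP2 replicate 1, 15 and 1 without SP2 replicate 2, and 40 and 77 without SP2 replicate 3. It was 10 and 1 without SP3 replicate 1, 13 and 0 without SP3 replicate 2, 14 and 15 without SP3 replicate 3, 21 and 9 without SP4 replicate 1, 14 and 3 without SP4 replicate 2, and 13 and 1 without the third SP4 array. A call was kept in each of the 12 fits by 7 probe sets, among them both of Tnfrsf9 (adjusted p = 0.000614 to 0.0205), Ikzf2 probe set 1456956_at (0.00402 to 0.0498) and the unnamed 1428301_at and 1452731_x_at. Rgs16 and Trpm1 lost the call only without SP2 replicate 1 (adjusted p = 0.0521 and 0.117).

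The other 18 calls ended without 3 or more of the arrays. Slc15a1 was lost without SP1 replicate 1, SP2 replicate 1 or SP2 replicate 2 (adjusted p up to 0.129), and Eno3 without SP1 replicate 1, SP1 replicate 2, SP2 replicate 1 or SP3 replicate 1 (up to 0.181). Ccnd2 at its first probe set was called in 6 of the 12 fits (up to 0.276), Akr1c18 in 5 (up to 0.257), Gpr83 in 4 (up to 0.291), Ikzf2 probe set 1437542_at in 4 (up to 0.291), Nudt6, P2rx7, Cdyl2 and the second Ccnd2 probe set in 3 each (up to 0.144 for P2rx7 and 0.345 for Ccnd2), and Ptgfrn and Cyth3 in 2 each (up to 0.345). The 6 dips were each called without SP1 replicate 3 and lost without SP1 replicate 1, SP1 replicate 2, SP2 replicate 1, SP2 replicate 2 or SP3 replicate 2, with adjusted p of up to 0.257 to 0.345. Without the 4 arrays of number 3, 26 probe sets were called higher and 108 lower, and 17 of these were among the 27. Without those of number 1 the counts were 1 and 0, the call being at Tnfrsf9, and without those of number 2 they were 10 and 0. Ikzf2 probe set 1456956_at was among those lost without number 3 (adjusted p = 0.0654) and without number 1 (0.232).

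With the replicate number as a random block in place of a fixed one, 10 of the higher calls and 1 of the lower held. Among them were both Tnfrsf9 probe sets, Rgs16, Trpm1, Eno3, the first Ccnd2 probe set, 1428301_at, 1452731_x_at and Tctex1d1. Both Ikzf2 probe sets lost the call (adjusted p = 0.398 for 1456956_at and 0.0934 for 1437542_at), as did Gpr83 (0.0934), Akr1c18 (0.108) and Slc15a1 (0.0748). The other calls lost were at 0.0748 to 0.605, among them Syt13 (0.114) and H2-Q2 (0.351).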

How the data were processed

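Arrays of the Mouse Genome 430 2.0 type were hybridised with RNA of 4 sorted subsets, 3 arrays each. The authors deposited 1 linear intensity per probe set and array. The study's methods name RMA, whereas the submitters' processing notes name MAS5, so the summarisation behind the intensities is not settled here. Array medians were 30.5 to 32.8.

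Intensities were taken as log2(intensity + 16), and limma 3.58.1 (R 4.3.3, mean-variance trend) estimated the 4 subset means from the 12 arrays together, leaving 8 residual degrees of freedom, or 6 with the replicate number as a block. Benjamini-Hochberg adjustment covered 45037 probe sets at a threshold of 0.05. The replicate numbers come from the sample titles. Deviations from subset means of same-numbered arrays correlated at 0.279 to 0.883 (18 pairs), each over 0.1, so the numbers were taken to pair the arrays. Arrays of numbers 1 and 2 in different subsets also correlated, at 0.178 to 0.729, a range that overlaps with it, and number 3 stood apart, at -0.812 to -0.388 with both. With number 3 apart, these correlations cannot show that arrays of numbers 1 and 2 are paired by number. The pairing is thus an assumption, and the calls with the block rest on it. The study describes the replicates as independent preparations of pooled thymi, and 3 arrays a subset limit the precision. Its figure captions label each array repeat by a code shared by the 4 subsets, without saying which replicate number a code belongs to. The fits were tested on simulated data with an effect shared by arrays of a replicate number and independent noise. The real arrays need not have that structure, so the simulation does not test the pairing.

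Genes were named from the platform annotation (34945 probe sets with 1 gene, 932 with several, 9160 unnamed). The rule named the 12 largest contrasts of each sign that were called without the block and alike in sign in 3 of 3 numbers. As none was called without it, places were filled from the fit with the block. List genes were read at their probe set of highest mean, with up to 4 named per list. The contrast and lists were chosen with earlier results of these data known. Promoters came from RefSeq (GRCm38.p6), matched by symbol. 1 called gene with 2 probe sets is counted but not reported here. Alternatives covered offset, filter, normalization, block, SAM-type statistic and left-out arrays. The closing part gives their effect.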

Additional observations from a re-analysis of the deposited data

How the results depend on the processing

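Entering the replicate number as a block in limma raised the calls from 0 to 21 higher and 6 lower, and as a random block (consensus correlation 0.407) to 10 and 1. A SAM-type statistic, which has no block, gave 13 and 2. It set the SP2 arrays against those of SP1 and SP3 pooled, with false calls estimated from 84 splits of the 9 arrays. In the limma fits, probe sets called and beyond SP1, SP3 and SP4 numbered 0 without the block, 26 with it and 11 with a random block. The settings that follow were tried within the fit with the block and chosen after seeing the data. Without an offset it called 32 and 20, with an offset of 32 it called 17 and 3, above a mean intensity of 50 it called 31 and 11, after quantile normalization 19 and 5, on the 9 arrays of SP1, SP2 and SP3 alone 12 and 1, and without the mean-variance trend 15 and 1. Leaving out 1 array gave 7 to 57 higher and 0 to 81 lower. Without the arrays of number 1 it gave 1 and 0, of number 2 10 and 0, and of number 3 26 and 108. The cause of these shifts was not tested.

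Among 95 named probe sets and their alternatives, Nudt6 turned to -0.12 at its probe set of highest mean. Leaving out 1 array in the fit without the block, signs changed for Ccr4 (-0.33 to 0.49), Ccr9 (-0.49 to 0.059), Cd4 (-0.053 to 0.33) and Cd69 (-0.078 to 0.43). They also changed there for Cxcr6 (-0.77 to 0.038), Nr4a3 (-0.038 to 1.17), Plxnd1 (-0.17 to 0.32) and Stat2 (-0.027 to 0.90). The offset compresses the contrast of dim probe sets.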
